A study of Mus musculus with 40 samples.

Results

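The nuclear genes for the subunits of mitochondrial complexes II, III, IV and V were taken by symbol from the gene table. The rule took Sdha, Sdhb, Sdhc and Sdhd, Cyc1, and the genes whose symbols begin with Uqcr, with Cox4, Cox5, Cox6, Cox7 or Cox8, or with Atp5, and it left out 6 pseudogenes. It found 49 of the 43430 genes in the table, of which 4 belong to complex II, 9 to complex III, 19 to complex IV and 17 to complex V. The rule works on names, so it also took Cox7a2l, which is known for joining complexes III and IV into supercomplexes, and Atp5s, which is known as coupling factor B and is called Dmac2l in RefSeq.

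The libraries came from macrophages that had been grown out of mouse bone marrow (BMDMs), taken from 5 WT mice and 5 NDI1 mice of the C57/Bl6 strain (the methods give a mixed background of the J and N substrains for the NDI1 line), and were measured by RNA-seq. WT mice carried VAV-Cre alone. NDI1 mice carried VAV-Cre and NDI1, a yeast NADH dehydrogenase that passes electrons from NADH to CoQ and is not blocked by piericidin A, an inhibitor of complex I. Vav-driven Cre acts in hematopoietic cells, where it removes a stop cassette ahead of NDI1 in the Rosa26 locus, and according to the methods the mice were littermates of both sexes, 8 to 14 weeks old. The cells of each mouse received no treatment, LPS at 100 ng/ml for 4 h, piericidin A at 500 nM, or both, with the inhibitor added 30 min ahead. LPS, a component of the bacterial cell wall, activates macrophages. The 8 groups therefore held 5 libraries each, 40 in all, and the 4 libraries of a mouse share its marrow. Reads of the yeast NDI1 sequence were not analysed here.

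Complex II passes electrons from succinate to CoQ, complex III passes them from reduced CoQ to cytochrome c, and complex IV passes them from cytochrome c to oxygen. Complexes III and IV pump protons, and complex V (ATP synthase) uses the proton gradient to make ATP. All subunits of complex II and most subunits of complexes III, IV and V are encoded in the nucleus, while a few core subunits of complexes III, IV and V are encoded in mitochondrial DNA. In macrophages, the oxidation of succinate at complex II is known to shape the response to LPS.

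The libraries held between 6950748 and 13552070 counts, with a median of 10361773.5. All 8 macrophage markers on the list were present in every library, with summed levels between 19674 and 38691 CPM (counts scaled to the library size after TMM factors), and the 3 erythroid markers were at or under 3 counts in all libraries. Summed markers of T and NK cells, mast cells, B cells, dendritic cells and fibroblasts reached at most 0.961, 3.42, 13.3, 31.5 and 56.3 CPM. The 7 neutrophil markers stood apart in WT mouse 496 and NDI1 mouse 503, with 268 and 272 CPM in the untreated libraries of these mice, against 9.09 to 62.7 CPM in the other 8 mice. TMM factors lay between 0.696 and 0.876 in LPS libraries and between 1.25 and 1.37 in untreated libraries, so the scaling weighs on every comparison with LPS.

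Of the 49 genes, 43 passed the filter on low counts and were tested. They were all 4 of complex II, all 9 of complex III, 13 of 19 of complex IV and all 17 of complex V. The other 6 are isoforms of complex IV. Cox4i2, the counterpart of Cox4i1 known from lung, had 16 counts over all 40 libraries and at most 2 in any library. Cox6b2, known from testis, had 58 counts in all and Cox6c2 had 12. Cox7b2, Cox8b and Cox8c had 0 counts in all 40 libraries, which allows up to 3 counts in a library. The isoforms known from muscle, Cox6a2 and Cox7a1, were tested but low: Cox6a2 lay between 0.223 and 4.10 CPM and Cox7a1 between 0.861 and 4.48 CPM. The complex IV of these BMDMs was thus measured through the widely expressed isoforms Cox4i1, Cox6a1, Cox6b1, Cox7a2 and Cox8a.

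The summed level of the genes of each complex is described first. In WT, complexes II to V together held 3593 ± 314 CPM untreated, 4537 ± 277 with LPS, 4335 ± 607 with piericidin A and 4691 ± 731 with both (mean ± SD, n = 5). In NDI1 they held 3591 ± 244 CPM untreated, 4559 ± 425 with LPS, 3831 ± 450 with piericidin A and 4789 ± 587 with both. The untreated and LPS values were close between genotypes, and the piericidin A value was where the means lay furthest apart, within 1 SD of WT. On library totals alone, without TMM factors, the order of untreated and LPS turned: WT then held 4731 CPM untreated and 3493 CPM with LPS.

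**Figure D1:**
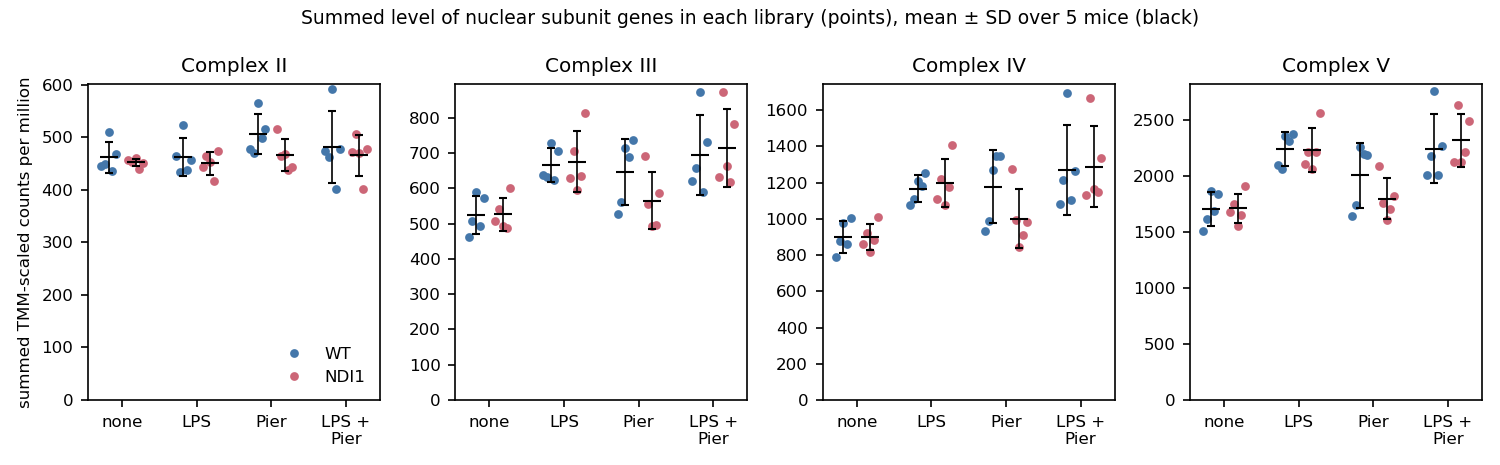
Summed TMM-scaled CPM of the nuclear subunit genes of complexes II, III, IV and V (vertical axes, each from 0) in each of the 40 libraries, by treatment (none, LPS, piericidin A as Pier, both) and genotype (WT blue, NDI1 red). Points are libraries and black bars are mean ± SD over 5 mice. Complex II stays between 450 and 506 CPM in the group means, while complex V goes from 1706 to 2243 CPM with LPS in WT. On library totals alone, 33 of 43 members in WT and 28 in NDI1 were called lower with LPS. The median gene then moved by −0.78 in WT and −0.77 in NDI1 on the log2 scale.

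The sums differed by complex. Complex II held 461 ± 29.8 CPM untreated and 463 ± 36 CPM with LPS in WT. Complex III went from 524 ± 53.8 to 665 ± 47.8 CPM, complex IV from 901 ± 87.9 to 1166 ± 73.6 CPM, and complex V from 1706 ± 153 to 2243 ± 151 CPM. The summed levels of complexes III, IV and V were thus higher in mean with LPS on the TMM scale, and the 2 means of complex II lay within 1 SD of each other; the sums were not tested. RNA was taken from whole cultures and the values are relative to each library, so they do not give the amount per cell.

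The effect of LPS was compared first in WT. LPS raised 23 of the 43 tested members and lowered 1 in WT (edgeR's quasi-likelihood test, adjusted p under 0.05 over all 11853 genes tested). Over all genes tested, 62.5% were called in either direction and 31.5% were called higher. The median log2 fold change was 0.35 for the members and −0.01 for all genes, and 31 of 43 members were higher in every WT mouse, against 36.1% of all genes. In NDI1, LPS also raised 23 members and lowered 1, where 62.7% of all genes were called and 31.5% were called higher. The median there was again 0.35, and 33 of 43 members were higher in every NDI1 mouse, against 35.5% of all genes. The calls in WT and NDI1 come from separate libraries: 19 members were called higher in both, 4 in WT alone and 4 in NDI1 alone, and no member was called for the difference itself. These directions hold relative to TMM, RLE and DESeq2 scaling and turn with library totals alone, where LPS called 0 members higher and 33 lower in WT, and 0 higher and 28 lower in NDI1. The median gene then moved by −0.78 in WT and −0.77 in NDI1 on the log2 scale. Measured from the median gene, the median of the members lay 0.36 above it in WT and 0.35 in NDI1 under TMM, and 0.36 and 0.35 under library totals. Under each of these scalings, 38 of 43 members in WT and 39 of 43 in NDI1 lay above the median gene. With the mouse as a block, 29 members were called in WT and 34 in NDI1, against 72% and 72.4% of all genes. In WT, 12 members were called with no filter on low counts, against 30.3% of all genes, and 14 with at least 10 counts in every library, against 65.2%. All changes with LPS below are on the TMM scale.

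In complex III, LPS raised 4 of 9 genes in each genotype, with a median log2 fold change of 0.30 in WT and 0.32 in NDI1. Uqcrfs1, which encodes the Rieske iron-sulfur protein that takes electrons from reduced CoQ (chr13:30540308-30545362 of mm10, minus strand), had the largest rise among all members. In untreated WT, Uqcrfs1 stood at 53.0, 67.7, 68.0, 50.8 and 58.6 CPM (mice 449, 452, 453, 496 and 520). With LPS it stood at 106, 110, 106, 109 and 105 CPM in the same mice. Every LPS library was above every untreated library, and the LPS libraries lay closer together than the untreated ones. The log2 fold change was 0.85 ± 0.13 (SE; adjusted p = 4.5e-07, edgeR). In untreated NDI1, Uqcrfs1 stood at 65.9, 65.8, 59.2, 48.9 and 73.3 CPM (mice 447, 460, 461, 503 and 521). With LPS it stood at 97.4, 106, 95.8, 110 and 118 CPM. These groups did not overlap either, and the log2 fold change was 0.75 ± 0.13 (adjusted p = 4.0e-06).

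Cyc1, the cytochrome c1 that hands electrons to cytochrome c, rose by 0.30 ± 0.12 in WT (log2; adjusted p = 0.023) and by 0.36 ± 0.12 in NDI1 (0.0070). Uqcrh, the hinge protein that sits beside cytochrome c1, rose by 0.42 ± 0.17 in WT (adjusted p = 0.031) and 0.45 ± 0.17 in NDI1 (0.021). The call of Uqcrh in WT was lost without any 1 of the 5 WT mice, that in NDI1 without mouse 521, and that of Cyc1 in WT without mouse 449, 496 or 520. The core proteins had smaller values than Uqcrfs1. Uqcrc2 was called in WT (0.36 ± 0.14, adjusted p = 0.027) and not in NDI1 (0.22 ± 0.14, 0.17; 0.0093 with the mouse as a block). The WT call was lost without mouse 449 or 452, and part of its exons (19.7% of bases) overlaps another gene. Uqcrc1 was called in neither genotype, at 0.17 ± 0.11 in WT (adjusted p = 0.15; 0.028 with the mouse as a block) and 0.22 ± 0.11 in NDI1 (0.066; 0.0063 with the block). Uqcrb, the subunit that binds CoQ, was called in NDI1 alone (0.32 ± 0.14, adjusted p = 0.047), a call lost without any 1 of the 5 NDI1 mice. Uqcr10, Uqcr11 and Uqcrq were not called, with log2 fold changes between 0.06 and 0.32 in WT. With the mouse as a block, Uqcrq was called in both genotypes (adjusted p = 0.016 in WT and 0.012 in NDI1) and Uqcr10 in NDI1 (0.028). In the same fit, the adjusted p in WT was 0.00033 for Cyc1, 0.0026 for Uqcrh and 3.2e-05 for Uqcrc2. That of Uqcrb in NDI1 was 0.024.

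In complex IV, LPS raised 9 of 13 tested genes in WT and 10 in NDI1, against 31.5% of all genes called higher in each. The medians were 0.42 and 0.44. Cox7a2, the isoform of subunit VIIa found in most tissues (chr9:79755241-79759853, minus strand), led the complex. In untreated WT it stood at 35.3, 40.1, 40.1, 40.9 and 45.0 CPM, and with LPS at 65.1, 54.0, 61.1, 71.3 and 68.4 CPM. In untreated NDI1 it stood at 36.4, 37.0, 39.0, 38.6 and 42.6 CPM, and with LPS at 58.2, 53.1, 57.7, 68.3 and 86.7 CPM. The groups did not overlap in either genotype, and NDI1 mouse 521 was the highest of its LPS group. The log2 fold changes were 0.67 ± 0.13 in WT (adjusted p = 1.9e-05) and 0.74 ± 0.13 in NDI1 (3.7e-06).

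The related Cox7a2l went the other way in value and was not called, at −0.18 ± 0.18 in WT (adjusted p = 0.41) and −0.15 ± 0.18 in NDI1 (0.51). It was the only tested member of complex IV below 0 on this scale. Cox5a and Cox5b, which sit on the matrix side of the complex, rose by 0.57 ± 0.13 and 0.51 ± 0.12 in WT (adjusted p = 0.00038 and 0.00051) and by 0.60 and 0.47 in NDI1. Part of Cox5a (12.8% of exon bases) overlaps another gene. Cox4i1, the subunit through which ATP is known to restrain the enzyme, was at 0.35 ± 0.17 in WT (adjusted p = 0.069; 0.0080 with the mouse as a block) and rose by 0.41 ± 0.17 in NDI1 (0.034), a call lost without mouse 460, 461, 503 or 521. Cox6a1, Cox6b1, Cox6c, Cox7b, Cox7c and Cox8a were called higher in both genotypes, with log2 fold changes between 0.35 and 0.58. The call of Cox7b in NDI1 was lost without any 1 of the 5 NDI1 mice or without WT mouse 496. Its call in WT was lost without mouse 452 or 496. That of Cox7c in WT was lost without mouse 449 or 452, and that of Cox6a1 in NDI1 without mouse 521. The low muscle isoforms Cox6a2 and Cox7a1 had standard errors between 0.36 and 0.39 and were not called.

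In complex V, LPS raised 9 of 17 genes and lowered 1 in WT, and raised 8 and lowered 1 in NDI1. Over all genes, 62.5% and 62.7% were called, with 31.5% called higher in each. The medians of the complex were 0.30 and 0.34. Atp5b, the beta subunit that carries the catalytic sites of F1 (chr10:128083273-128090391, plus strand), stood at 399, 404, 504, 452 and 504 CPM in untreated WT and at 607, 570, 669, 683 and 702 CPM with LPS. In NDI1 it stood at 451, 454, 417, 446 and 529 CPM untreated and at 611, 620, 597, 657 and 746 CPM with LPS. No LPS library overlapped the untreated ones, and the log2 fold changes were 0.51 ± 0.11 (adjusted p = 8.8e-05) and 0.49 ± 0.11 (0.00016). Atp5a1, the alpha subunit that sits beside beta in F1, rose by 0.37 ± 0.10 in WT and 0.34 ± 0.10 in NDI1 (adjusted p = 0.0015 and 0.0034). Atp5f1, subunit b of the stalk that holds F1 in place, rose by 0.57 ± 0.11 and 0.53 ± 0.11 (adjusted p = 1.6e-05 and 5.0e-05).

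Not all of F1 moved alike in value. Atp5c1, the gamma subunit that turns inside F1, was at 0.20 ± 0.11 in WT (adjusted p = 0.11; 0.028 with the mouse as a block) and 0.14 ± 0.11 in NDI1 (0.27). Atp5d, the delta subunit at its foot, was at 0.05 ± 0.17 in WT and 0.27 ± 0.17 in NDI1 (adjusted p = 0.81 and 0.16; 0.015 with the block in NDI1). The 3 genes Atp5g1, Atp5g2 and Atp5g3 encode the same subunit c of the membrane ring with different targeting sequences. Of these, Atp5g3 rose by 0.49 ± 0.11 in WT and 0.46 ± 0.11 in NDI1 (adjusted p = 0.00038 and 0.00066). Atp5g1 was at 0.17 ± 0.17 and 0.10 ± 0.17, and Atp5g2 at −0.08 ± 0.15 and 0.17 ± 0.15 (adjusted p between 0.35 and 0.67). Atp5g2 shares 35.8% of its 75-base windows with other genes, so its counts are less certain.

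Atp5s was the 1 member called lower with LPS. In untreated WT it stood at 2.77, 3.98, 2.84, 1.91 and 3.43 CPM, and with LPS at 1.77, 1.5, 0.781, 0.686 and 2.42 CPM. In untreated NDI1 it stood at 2.79, 2.49, 2.35, 2.24 and 3.65 CPM, and with LPS at 1.54, 0.904, 1.89, 0.536 and 1.41 CPM. The WT groups overlapped, since mouse 520 with LPS stood above untreated mouse 496, and the NDI1 groups did not overlap. Atp5s fell by 1.08 ± 0.32 in WT and 1.10 ± 0.33 in NDI1 on the log2 scale (adjusted p = 0.0042 and 0.0037), at a level of few CPM.

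**Figure D2:**
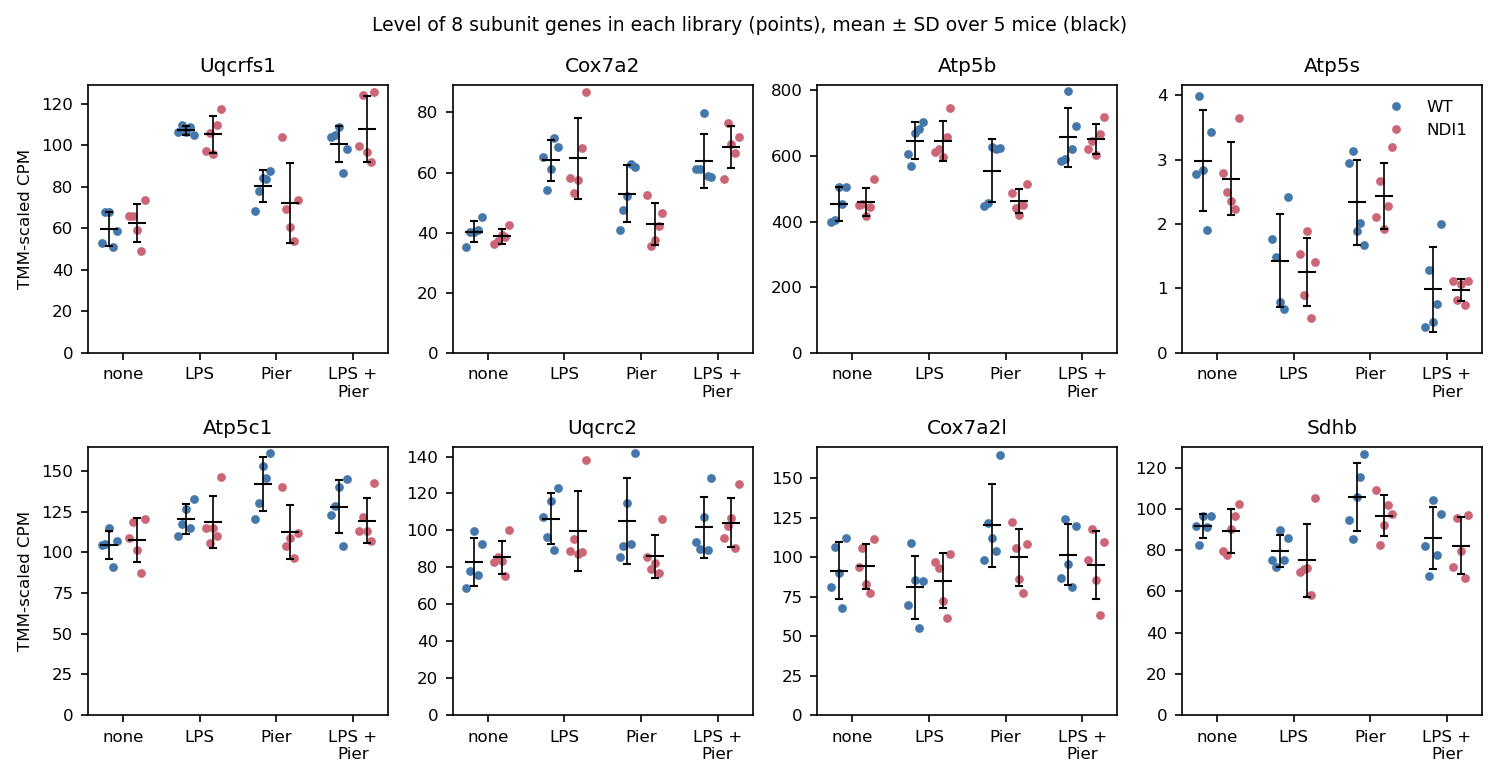
TMM-scaled CPM (vertical axes, each from 0) of Uqcrfs1, Cox7a2, Atp5b, Atp5s, Atp5c1, Uqcrc2, Cox7a2l and Sdhb in each of the 40 libraries, by treatment (none, LPS, piericidin A as Pier, both) and genotype (WT blue, NDI1 red). Points are libraries and black bars are mean ± SD over 5 mice; Uqcrfs1, Cox7a2 and Atp5b are higher in every LPS library than in every untreated library of the same genotype on this scale (on library totals alone Cox7a2, Atp5b and, in NDI1, Uqcrfs1 were below 0 in log2 fold change), Atp5s is lower with LPS, and Atp5c1 is higher in every WT library with piericidin A than in every untreated one.

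Complex II had 1 called gene of 4 in each genotype with LPS, against 62.5% of all genes in WT and 62.7% in NDI1. Sdhc, the membrane subunit that holds heme with Sdhd, rose by 0.24 ± 0.09 in WT and 0.22 ± 0.09 in NDI1 (adjusted p = 0.023 and 0.033), calls lost without mouse 449 or 520 in WT and mouse 461, 503 or 521 in NDI1. It stood at 75, 75.4, 88.3, 75.9 and 79.7 CPM in untreated WT and at 93.4, 87.4, 106, 82.5 and 96.9 CPM with LPS, and these groups overlapped. Sdha, the flavoprotein that oxidizes succinate, stood at 195, 210, 229, 192 and 205 CPM untreated and at 197, 194, 225, 191 and 178 CPM with LPS in WT. On the log2 scale Sdha stood at −0.07 ± 0.10 in WT and at −0.05 ± 0.10 in NDI1 (adjusted p = 0.57 and 0.70). Sdhb, the iron-sulfur subunit, stood at 92.0, 82.6, 96.4, 91.4 and 96.4 CPM untreated and at 75, 71.9, 89.9, 75.5 and 86.0 CPM with LPS in WT, lower in each of the 5 mice. Its log2 fold change was −0.20 ± 0.13 in WT (adjusted p = 0.19; 0.073 with the mouse as a block) and −0.25 ± 0.13 in NDI1 (0.10; 0.024 with the block). Sdhd, the second membrane subunit, was at 0.14 ± 0.14 and 0.09 ± 0.14 (adjusted p = 0.40 and 0.59).

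Cycling-cell markers moved with LPS as well. The summed level of Mki67, Top2a and Ccnb1 lay between 27.5 and 47.1 CPM in untreated WT and between 75 and 124 CPM in LPS-treated WT. The corresponding ranges in NDI1 were 31.9 to 41.6 CPM and 75.3 to 112 CPM. Neutrophil markers were higher with LPS in all 5 mice of each genotype, at 31.4 to 82.2 CPM in 4 WT mice and 626 CPM in mouse 496. Dendritic cell markers went from between 1.22 and 4.45 CPM to between 7.7 and 16.5 CPM in WT, without overlap, and were higher in all 5 NDI1 mice. Summed macrophage markers went from 24606 ± 4157 to 30491 ± 4691 CPM in WT (mean ± SD). In NDI1 they went from 25675 ± 3198 to 30804 ± 3589 CPM. The part of these markers' cells in the rise of the members was not tested. Without WT mouse 496 and NDI1 mouse 503, LPS called 17 members in WT and 19 in NDI1, against 60.4% and 60.7% of all genes. Without each mouse in turn the count stayed between 16 and 24 in WT, where 56.4% to 62.8% of all genes were called, and between 17 and 25 in NDI1, where 56.7% to 64% were called. In all, 14 of the 24 WT calls and 16 of the 24 NDI1 calls held whichever mouse was left out, among them Uqcrfs1, Cox7a2, Atp5b, Atp5f1 and Atp5s in both genotypes.

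The LPS effect itself was then compared between genotypes. No member was called for this difference (0% of all genes were called), and at an unadjusted p under 0.05 the count was 0 in edgeR and 0 in DESeq2. The lowest p was that of Atp5l, subunit g of the membrane part, at 0.39 ± 0.27 (NDI1 minus WT, log2; adjusted p = 1.0). The median difference over the members was 0.03.

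Genes known to build these complexes were taken from lists, and their changes with LPS went in both directions. The shift of the median gene under library totals applies to these values too. Of 22 tested assembly factors of complex IV, LPS raised 6 and lowered 7 in WT, and raised 8 and lowered 8 in NDI1, where 62.5% and 62.7% of all genes were called. Sco1, which delivers copper to the enzyme, rose by 2.31 ± 0.16 in WT and Cox18, which inserts a subunit into the membrane, by 1.70 ± 0.17. Cox17, the copper carrier, rose by 1.02 ± 0.15. Coa6 fell by 1.90 ± 0.26 and Surf1, a factor for heme insertion, by 0.46 ± 0.13. Of 5 assembly factors of complex III, 0 rose and 3 fell in WT: Bcs1l, which inserts the Rieske protein Uqcrfs1 into the complex, fell by 1.52 ± 0.23 (adjusted p = 3.6e-07), Uqcc3 by 1.46 ± 0.21 and Uqcc1 by 0.33 ± 0.12. For complex II, 1 of 4 fell: Sdhaf1, which helps load iron-sulfur clusters into Sdhb, fell by 1.69 ± 0.41 (adjusted p = 0.00055). For complex V, 2 of 5 fell, Atpaf1 by 0.92 ± 0.16 and Atpaf2 by 0.36 ± 0.09, both of which help assemble F1. In NDI1, Sdhaf1 was called at −1.53 ± 0.40 and Bcs1l at −1.55 ± 0.22.

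Of 9 electron carriers and associated enzymes, 3 were called higher and 3 lower with LPS in each genotype. Of all genes, 62.5% were called in WT and 62.7% in NDI1. Cycs, the cytochrome c that moves electrons from complex III to complex IV, rose by 2.38 ± 0.20 in WT and 2.5 ± 0.20 in NDI1. Gpd2, which feeds electrons from glycerol 3-phosphate into CoQ, rose by 2.71 ± 0.34 and 2.64 ± 0.34. Dhodh, which feeds electrons from pyrimidine synthesis into CoQ, fell by 0.75 ± 0.18 in WT. The rise of Cycs and Gpd2 was thus larger in value than that of any subunit. Of the mitochondrially encoded subunits of complexes III, IV and V, 2 of 6 passed the filter in these polyA-selected libraries, mt-Cytb at 0.08 ± 0.28 and mt-Co1 at 0.28 ± 0.24 in WT, and neither was called.

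Of 12 tested regulators of mitochondrial gene expression, 7 were called higher and 3 lower with LPS in each genotype. Over all genes, 62.5% were called in WT and 62.7% in NDI1, with 31.5% called higher in each. Gabpa and Gabpb1, the subunits of a factor that binds ETS motifs, rose by 0.68 ± 0.11 and 1.39 ± 0.19 in WT, and Nrf1 rose by 0.45 ± 0.12. Ppargc1b, a coactivator of estrogen-related receptors, rose by 1.42 ± 0.33, and Esrra, such a receptor, by 0.54 ± 0.11. Tfam, which packs mitochondrial DNA, rose by 0.47 ± 0.12, while Tfb2m and Polrmt, which transcribe it, fell by 1.24 ± 0.22 and 1.09 ± 0.19.

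The promoters of some members are shown because these regulators have known motifs. RefSeq promoters of the build GRCm38.p6, from 250 bases before to 50 after the start of a gene, were given for 36 of the 49 members and 27025 genes in all, and motifs were searched on both strands. The NRF1 motif GCATGCGC was found in 7 of 36 member promoters (19.4%), against 2.8% of all promoters. The ETS motif CCGGAAGT was found in 4 (11.1%, against 4%), the estrogen-related receptor motif AAGGTCA in 5 (13.9%, against 4.66%), the YY1 motif AAGATGGC in 2 (5.56%, against 2.88%) and the CRE motif TGACGTCA in 1 (2.78%, against 1.88%). CCAAT was found in 20 (55.6%, against 37.9%) and TATAAA in 3 (8.33%, against 14.2%). The motif shares are descriptions of these letters and say nothing about binding in these cells. The starts are those of RefSeq, and for some members the deposited table places the gene elsewhere. The 100 bases before the start are therefore given for 4 members whose stretch lies outside the gene of the deposited table but for at most 9 bases: Atp5g3 and Uqcrh, which rose with LPS in both genotypes, Atp5l, which rose in NDI1, and Uqcr11, which was not called. Capitals mark the motif, on the strand of the gene.
Uqcrh, ETS motif read on the other strand, chr4:116075071-116075170, minus strand: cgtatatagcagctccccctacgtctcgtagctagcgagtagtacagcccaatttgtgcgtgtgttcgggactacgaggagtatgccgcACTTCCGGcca
Uqcr11, ETS motif, chr10:80406822-80406921, minus strand: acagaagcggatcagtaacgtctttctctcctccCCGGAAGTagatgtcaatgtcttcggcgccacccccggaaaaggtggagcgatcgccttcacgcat
Atp5g3, estrogen-related receptor motif read on the other strand, chr2:73911327-73911426, minus strand: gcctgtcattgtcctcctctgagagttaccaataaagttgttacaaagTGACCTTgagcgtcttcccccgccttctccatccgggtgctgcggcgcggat
Atp5l, estrogen-related receptor motif read on the other strand, chr9:44920743-44920842, minus strand: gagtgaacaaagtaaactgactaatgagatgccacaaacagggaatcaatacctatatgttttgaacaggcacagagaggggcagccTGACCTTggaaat
The 7 promoters with the NRF1 motif were those of Sdhb, Uqcrc1, Uqcr11, Cox6a1, Atp5g2, Atp5k and Atp5l. Of these genes, Cox6a1 was called higher with LPS in both genotypes, Atp5k and Atp5l in NDI1, and the other 4 in neither.

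The effect of piericidin A without LPS was compared next. In WT, piericidin A raised 10 of 43 members and lowered 0 (edgeR, adjusted p under 0.05). Over all genes, 14.8% were called and 7.79% were called higher. On library totals alone 0 members were called, against 18.7% of all genes, with a median of 0.20. With no filter on low counts 2 were called, against 5.05%. The median log2 fold change was 0.34 for the members and −0.00045 for all genes, and 41 of 43 values were above 0. In every WT mouse, 35 of 43 members were higher with piericidin A, against 21.5% of all genes. With the mouse as a block, 26 members were called, against 34.2% of all genes, and all 26 were higher. The calls were lost as mice were left out: without WT mouse 496, whose neutrophil markers stood at 957 CPM with piericidin A against 19.5 to 73.0 CPM in the other WT mice, 0 members were called, against 6.65% of all genes. The fold changes of the 10 members then lay between 0.31 and 0.48 on the log2 scale, at 0.39 for Atp5c1, 0.36 for Uqcrfs1 and 0.34 for Cox8a. Over all 5 mice they lay between 0.33 and 0.57. Leaving out mouse 449, 452, 453 or 520 left 4, 7, 3 or 2 calls, against 9.91%, 13.1%, 11.9% and 7.44% of all genes. Leaving out mouse 496 with NDI1 mouse 503 left 1, that of Atp5c1, against 7.72%. Neutrophil markers were higher with piericidin A in all 5 WT mice. Cycling-cell markers were also higher in all 5, between 51.9 and 73.4 CPM against 27.5 to 47.1 CPM untreated, and lay between 30.3 and 52.6 CPM in NDI1 against 31.9 to 41.6 CPM untreated. The part of these markers' cells in the values of the members was not tested.

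Atp5c1, the gamma subunit of F1 (chr2:10056016-10080510, minus strand), had the lowest adjusted p of the members. In WT it stood at 104, 105, 115, 90.8 and 107 CPM untreated and at 121, 130, 153, 145 and 161 CPM with piericidin A. Every library with piericidin A was above every untreated one. The log2 fold change was 0.44 ± 0.11 (adjusted p = 0.0059; 9.3e-05 with the mouse as a block). In NDI1 it stood at 109, 119, 102, 87.3 and 120 CPM untreated and at 140, 104, 109, 96.4 and 112 CPM with piericidin A, and these groups overlapped, with mouse 447 highest. The log2 fold change in NDI1 was 0.06 ± 0.11 (adjusted p = 1.0).

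The other calls fell in complexes III, IV and V. The largest were Atp5e, the epsilon subunit of F1 (0.57 ± 0.20, adjusted p = 0.044), Uqcrh (0.49 ± 0.17, 0.047) and Atp5g2 (0.44 ± 0.15, 0.042). Atp5e stood at 49.4, 58.0, 59.6, 57.1 and 53.5 CPM untreated and at 61.0, 60.0, 91.9, 106 and 94.2 CPM with piericidin A in WT, without overlap, although mouse 452 moved little. Uqcrh overlapped in part, at 52.5, 67.7, 64.3, 50.9 and 68.8 CPM untreated and at 64.2, 83.6, 86.5, 94.6 and 97.5 CPM with piericidin A. Uqcrfs1 rose by 0.43 ± 0.13 (adjusted p = 0.019), at 68.1, 77.7, 84.2, 83.9 and 87.6 CPM with piericidin A. All 5 libraries lay above the untreated ones, though the lowest was next to the highest untreated library. In complex IV, Cox7c (0.41, adjusted p = 0.027), Cox8a (0.40, 0.012), Cox7a2 (0.39, 0.029) and Cox5b (0.36, 0.042) rose. Atp5f1 rose by 0.33 (adjusted p = 0.031).

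In complex II, 0 of 4 genes were called with piericidin A in WT. Sdha was at 0.01 ± 0.10, Sdhb at 0.20 ± 0.13, Sdhc at 0.21 ± 0.09 and Sdhd at 0.26 ± 0.14 (adjusted p = 0.97, 0.32, 0.12 and 0.22; Sdhc and Sdhd had 0.030 and 0.040 with the mouse as a block). The alpha subunit Atp5a1 was at 0.02 ± 0.10 (adjusted p = 0.94), and Atp5j, a stalk subunit known as coupling factor 6, at −0.07 ± 0.09 (0.61). Both of these rose with LPS. Atp5b was at 0.29 ± 0.11 (adjusted p = 0.058; 0.00059 with the block). Cox7a2l, which did not rise with LPS, was at 0.39 ± 0.18 (adjusted p = 0.15; 0.00047 with the block).

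**Figure D3:**
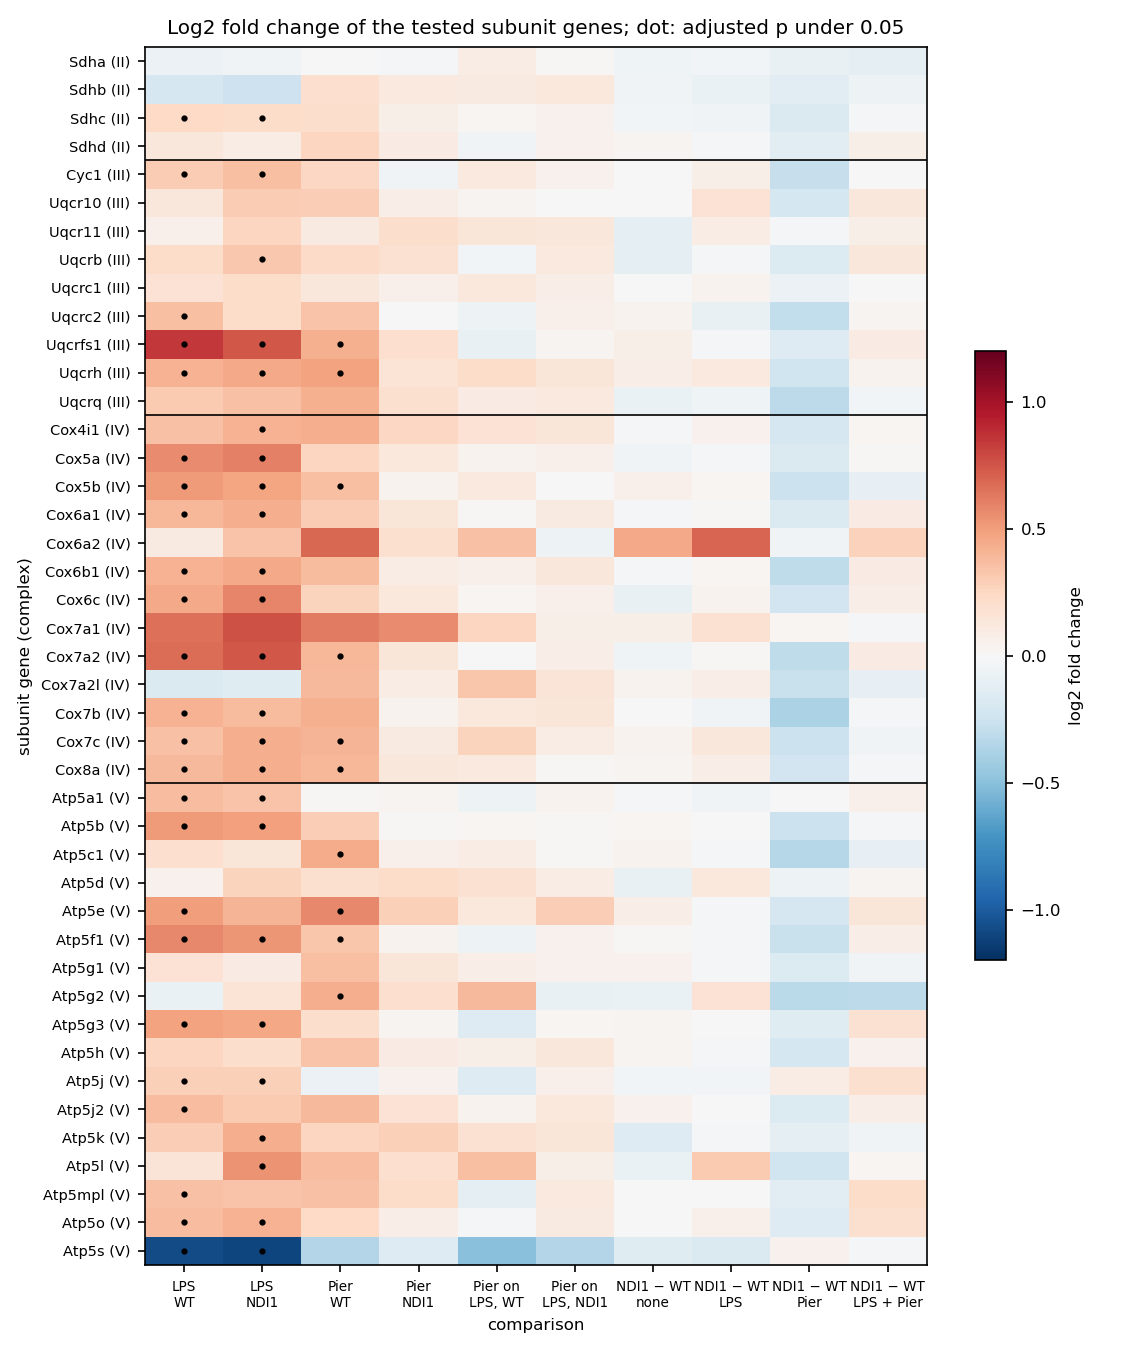
Log2 fold change (colour, from −1.2 blue to 1.2 red; larger values take the end colour) of the 43 tested subunit genes (rows, by complex) in 10 comparisons (columns: LPS and piericidin A, as Pier, in each genotype, piericidin A on top of LPS, and NDI1 minus WT under each treatment), with a dot where the adjusted p of edgeR is under 0.05. The dots stand in the LPS columns (24 in WT and 24 in NDI1) and the piericidin A column of WT (10), and no other column has one. On library totals alone, 33 members in the LPS column of WT and 28 in that of NDI1 were called lower and 0 higher. The median gene then moved by −0.78 in WT and −0.77 in NDI1 with LPS.

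In NDI1, piericidin A called 0 of 43 members, and 0% of all genes were called. At an unadjusted p under 0.05 the count of members was 0 in edgeR and 0 in DESeq2. The median log2 fold change of the members was 0.12, and 4 of 43 were higher in every NDI1 mouse, against 3.71% of all genes. The mice differed from each other. The median change of the 43 members within a mouse, on the log2(CPM + 1) scale, was 0.48 in NDI1 mouse 447 and lay between −0.05 and 0.07 in the other 4 NDI1 mice. In WT it was 0.19, 0.12, 0.32, 0.55 and 0.27 in mice 449, 452, 453, 496 and 520. NDI1 mouse 447 thus stood within the WT range and its group-mates below it. The library of mouse 447 with piericidin A was the highest of its group for 34 of 43 members, for 32 of 36 complex I subunits and for 18.8% of all genes.

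The difference of the piericidin A effect between genotypes was tested directly. It was called for 0 of 43 members, against 1.27% of all genes. At an unadjusted p under 0.05 the count was 1 in edgeR and 1 in DESeq2. The median difference was −0.22 (NDI1 minus WT, log2). With the mouse as a block, 3 members were called, against 8.96% of all genes. They were Atp5c1 at −0.37 (adjusted p = 0.035), Uqcrc2 at −0.33 (0.034) and Atp5b at −0.27 (0.046), and without the block they were at −0.38 ± 0.16, −0.34 ± 0.20 and −0.28 ± 0.15 (adjusted p = 0.32, 0.56 and 0.50). The share of 3 in 43 is close to the share over all genes.

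**Figure D4:**
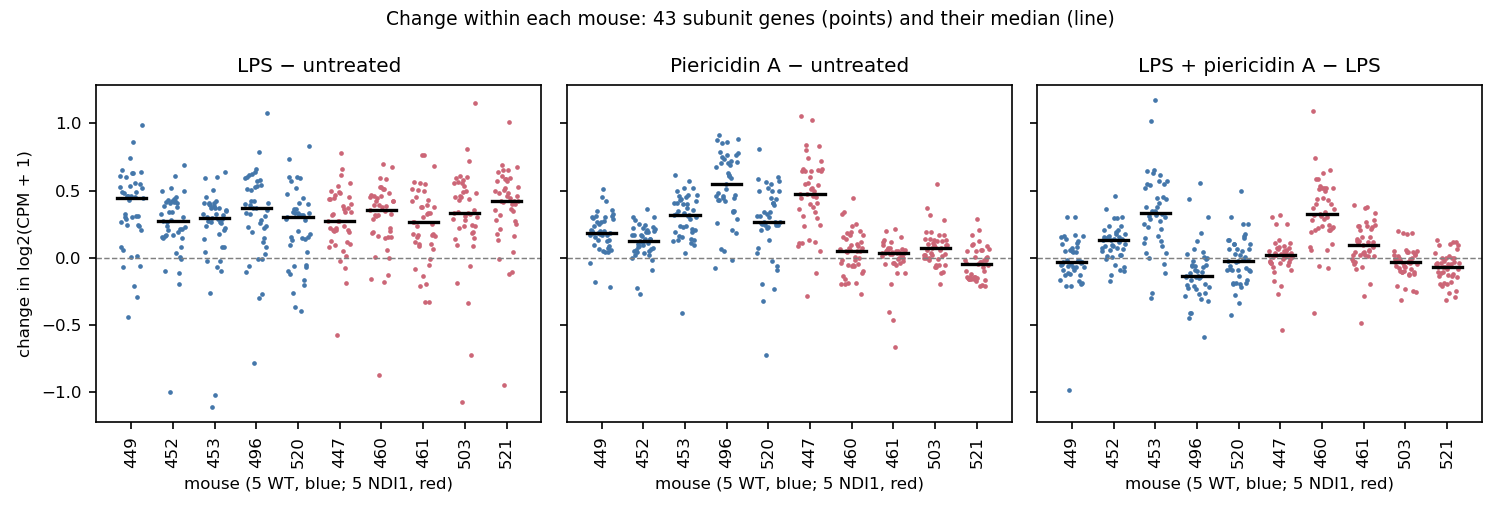
Change in log2(CPM + 1) within each of the 10 mice (horizontal axes: 5 WT in blue, 5 NDI1 in red) for the 43 tested subunit genes (points) and their median (black line), with LPS, with piericidin A, and with piericidin A on top of LPS. With piericidin A the medians lie between 0.12 and 0.55 in the WT mice and between −0.05 and 0.07 in 4 NDI1 mice, with mouse 447 at 0.48; with LPS all 10 medians lie between 0.26 and 0.44 on the TMM scale (on library totals alone the median LPS effect of the members was −0.43 in WT and −0.42 in NDI1).

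The effect of piericidin A under LPS was compared in the same way. LPS with piericidin A against LPS called 0 of 43 members in WT, where 16.7% of all genes were called, and 0 in NDI1, where 0% were called. At an unadjusted p under 0.05, the count of members in WT was 1 in edgeR and 1 in DESeq2, and in NDI1 it was 0 and 0. The median of the members stood at 0.08 in WT and 0.07 in NDI1 on the log2 scale. With the mouse as a block, 2 members were called in WT, against 34.5% of all genes. They were Cox7a2l at 0.34 (adjusted p = 0.0032) and Atp5g2 at 0.39 (0.011), and without the block they were at 0.33 ± 0.18 and 0.39 ± 0.16 (adjusted p = 0.22 and 0.077).

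Cox7a2l stood at 69.8, 109, 85.3, 54.9 and 84.8 CPM with LPS and at 86.5, 124, 95.6, 81.3 and 120 CPM with both in WT. It was higher in each of the 5 mice, while the groups overlapped. Neutrophil and cycling-cell markers were also higher with both agents than with LPS in all 5 WT mice, and their part was not tested. With both agents, neutrophil markers stood at 1584 CPM in mouse 496 and at 60.7 to 110 CPM in the other 4 WT mice, and cycling-cell markers at 85 to 305 CPM. Some assembly factors of complexes III and IV were called in this comparison, where 16.7% of all genes were called. Bcs1l was at 0.92 ± 0.24 (adjusted p = 0.0065), Coa5 at −0.57 ± 0.14 (0.0037) and Cox15 at −0.46 ± 0.09 (0.00065). WT mouse 453 was the highest of its group for 34 of 43 members, 29 of 36 complex I subunits and 23.1% of all genes with both agents, in the library with the fewest counts of all (6950748). The difference of this effect between genotypes was called for 0 members, against 0.979% of all genes.

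Whether LPS changed the effect of piericidin A in WT was tested as a contrast added after the values were seen. It was called for 0 of 43 members, against 4.75% of all genes. The median was −0.26 on the log2 scale, and 38 of 43 members lay below the median gene. With the mouse as a block, 5 members were called, against 17.4% of all genes. They were Uqcrfs1 at −0.53 (adjusted p = 0.012), Uqcrc2 at −0.40 (0.0051), Atp5f1 at −0.38 (0.027), Atp5c1 at −0.36 (0.031) and Atp5b at −0.27 (0.031). For Uqcrfs1, the level with both agents was 104, 105, 109, 86.6 and 98.2 CPM in WT, within or below the range of 105 to 110 CPM with LPS alone, whereas piericidin A alone stood above untreated.

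NDI1 was last compared with WT under each treatment. Without treatment, 0 members were called and 0% of all genes were called. With LPS, 0 members were called and 0% of all genes. With piericidin A, 0 members were called, against 7.8% of all genes. With LPS and piericidin A, 0 members were called, against 12% of all genes. At an unadjusted p under 0.05 these counts were 0, 0, 11 and 1 in edgeR and 0, 0, 9 and 1 in DESeq2, where edgeR gave 39, 141, 2620 and 3217 of all 11853 genes. With piericidin A, 39 of 43 members were below the median gene in NDI1 against WT, with a median of −0.18. Atp5c1 came nearest to a call there, at −0.34 ± 0.11 (adjusted p = 0.051), and was called by DESeq2. Without NDI1 mouse 447, 2 members were called, against 7.7% of all genes, Atp5c1 and Atp5f1 (log2 fold changes of −0.43 and −0.35).

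The members were set beside 2 other groups of nuclear mitochondrial genes. Of 36 nuclear subunits of complex I, LPS raised 4 and lowered 0 in WT, with a median log2 fold change of 0.08, and piericidin A called 0, with a median of 0.24. Of 76 tested mitochondrial ribosomal proteins, LPS raised 14 and lowered 21, with a median of −0.01, and piericidin A raised 7 and lowered 0, with a median of 0.13. Over all genes in WT, 62.5% were called with LPS (31.5% higher) and 14.8% with piericidin A (7.79% higher). The members of complexes II to V together had a median of 0.35 with LPS in WT, the highest of these groups. Among them, the summed level of complex II was 461 CPM untreated and 463 CPM with LPS in WT. The difference between the groups was not tested.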

How the data were processed

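PolyA RNA from the BMDMs of 10 mice was sequenced from NEBNext libraries. According to the submitters' processing notes, bcl2fastq, Trimmomatic, STAR and HTSeq were used with the build mm10; the annotation release, the strand setting and the versions of STAR and HTSeq are not given in the sources used here. The authors deposited raw counts per gene for 43430 genes (968 without a symbol). Groups and mice came from the labels, and 1 column of counts that matched no sample was not used.

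Counts were tested with edgeR 4.0.16 in R 4.3.3: filterByExpr left 11853 genes, TMM factors were applied, 8 group means were fitted over all 40 libraries, and contrasts were tested with the quasi-likelihood F test and Benjamini-Hochberg adjustment over all tested genes (threshold 0.05). Levels are CPM on TMM-scaled library sizes, and changes within a mouse use log2(CPM + 1). Alternatives were DESeq2 1.42.0, RLE factors, library totals alone, no filter, at least 10 counts in every library, only the compared libraries, each mouse left out and the mouse as a block. Mice 496 and 503 were left out together after seeing the data. The labels give the mouse of each library; deviations from group means correlated at 0.453 on average within a mouse (60 pairs) and at −0.107 between mice (240 pairs). Each of 80 replicate pairs differed beyond counting noise. The fit was tested on simulated data. Tables and figures were made with python 3.11.15, pandas 2.3.3 and matplotlib 3.10.9. The exon lengths deposited with the counts join all isoforms, so levels were not compared between genes.

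The genes named were the complex II subunits, the catalytic and core subunits of the other complexes, isoform pairs, the 3 largest rises and falls of each comparison among called genes, and members whose treatment effect differed between genotypes; other genes came from lists. The members and lists were chosen with earlier results of these data known.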

Additional observations from a re-analysis of the deposited data

Results flagged for a closer look

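Among 264 groups of 5 libraries, 18 had a library apart by Dixon's ratio (critical value 0.71), and chance alone sets apart about 1 in 20 groups. NDI1 mouse 521 had 7 of them and WT mouse 453 had 5. In mouse 521, Atp5f1 and Atp5g3 stood at 143 and 124 CPM untreated, and Atp5c1, Cox6b1, Sdhb, Sdhd and Uqcrc2 at 146, 144, 105, 111 and 138 CPM with LPS, each the highest of its group. In mouse 453, Atp5g1, Atp5g3, Cox5b and Cox7a2 stood at 37.2, 153, 101 and 79.8 CPM with LPS and piericidin A, and Uqcrc1 stood at 167 CPM with LPS. In NDI1 mouse 447, Atp5e, Cox6b1 and Sdhc stood at 111, 123 and 97.9 CPM with piericidin A. Cox5b stood at 80.9 CPM in NDI1 mouse 460 with both agents, Atp5a1 at 387 CPM in untreated NDI1 mouse 461, below the others, and Cox8a at 148 CPM in WT mouse 496 with LPS.

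The piericidin A effect differed between genotypes, with the mouse as a block, for Atp5c1 (−0.37, NDI1 minus WT, log2), Uqcrc2 (−0.33) and Atp5b (−0.27). Without the block none of the 3 passed the threshold, and with it 8.96% of all genes were called.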

How the results depend on the processing

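The values turned mainly with the scaling of LPS libraries. On library totals alone, LPS called 33 members in WT and 28 in NDI1, and all were lower. The median of all genes then moved by −0.78 in WT and −0.77 in NDI1 on the log2 scale. TMM and library totals differ by what the typical gene is taken to do, and as a share of all counts the summed members were lower with LPS in all 10 mice (0.439% to 0.309% in WT mouse 449, 0.535% to 0.418% in NDI1 mouse 521). The amount per cell was not measured. The members that changed sign and were called on at least 1 of these scales had, in WT, log2 fold changes of Atp5a1 −0.40, Atp5b −0.26, Atp5c1 −0.57, Atp5d −0.72, Atp5e −0.27, Atp5f1 −0.21, Atp5g1 −0.61, Atp5g3 −0.29, Atp5h −0.52, Atp5j −0.49, Atp5j2 −0.41, Atp5k −0.48, Atp5l −0.64, Atp5mpl −0.42, Atp5o −0.41, Cox4i1 −0.42, Cox5a −0.21, Cox5b −0.27, Cox6a1 −0.37, Cox6b1 −0.36, Cox6c −0.33, Cox7a2 −0.11, Cox7b −0.36, Cox7c −0.43, Cox8a −0.40, Cyc1 −0.47, Sdhc −0.53, Sdhd −0.64, Uqcr10 −0.64, Uqcr11 −0.71, Uqcrb −0.56, Uqcrc1 −0.59, Uqcrc2 −0.41, Uqcrh −0.35, Uqcrq −0.46. In NDI1 these log2 fold changes were Atp5a1 −0.43, Atp5b −0.28, Atp5c1 −0.63, Atp5d −0.49, Atp5f1 −0.24, Atp5g1 −0.68, Atp5g2 −0.59, Atp5g3 −0.31, Atp5h −0.56, Atp5j −0.48, Atp5j2 −0.45, Atp5k −0.33, Atp5l −0.23, Atp5mpl −0.43, Atp5o −0.35, Cox4i1 −0.36, Cox5a −0.17, Cox5b −0.30, Cox6a1 −0.34, Cox6b1 −0.31, Cox6c −0.19, Cox7a2 −0.032, Cox7b −0.39, Cox7c −0.34, Cox8a −0.33, Cyc1 −0.40, Sdhc −0.55, Sdhd −0.68, Uqcr10 −0.46, Uqcr11 −0.51, Uqcrb −0.45, Uqcrc1 −0.55, Uqcrc2 −0.55, Uqcrfs1 −0.027, Uqcrh −0.31. The summed CPM of complexes II to V moved on this scale to 4731 untreated, 3493 with LPS, 5204 with piericidin A and 3794 with both in WT, and to 4745, 3532, 4989 and 3737 in NDI1. With RLE factors, LPS called 23 members in WT and 21 in NDI1, and with DESeq2 23 and 22.

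The count for LPS in WT was 12 with no filter on low counts and 14 with at least 10 counts in every library, where 46 and 40 members were in the fit and 30.3% and 65.2% of all genes were called. The count for piericidin A in WT was the least stable: 0 on library totals, 2 with no filter, 26 with the mouse as a replicate block, 1 without mice 496 and 503 (chosen after seeing the data), and between 0 and 11 without each mouse in turn. For the other comparisons, the block called 3 members for the difference of the piericidin A effect, 2 for piericidin A on top of LPS in WT and 5 for the change of the piericidin A effect by LPS, the last of which had 1 call when only the compared libraries were fitted. NDI1 against WT with piericidin A had 1 call with DESeq2 and 1 with at least 10 counts, and between 0 and 2 without each mouse in turn. Piericidin A on top of LPS in WT had between 0 and 1. The replicate block paired the libraries of a mouse; besides these counts, it called 29 members for LPS in WT and 34 in NDI1, against 72% and 72.4% of all genes. The cause of these moves was not tested. Members at few CPM, such as Atp5s, Cox6a2 and Cox7a1, carry the largest errors.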

Other observations

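Libraries tended to stand high or low for many members at once. WT mouse 453 was the highest of its group for 34 of 43 members with LPS and piericidin A, and NDI1 mouse 447 for 34 with piericidin A. The same libraries were the highest for 29 and 32 of 36 nuclear complex I subunits, for 61.8% and 56.6% of mitochondrial ribosomal proteins, and for 23.1% and 18.8% of all genes tested. NDI1 mouse 521 was the highest for 31 members with LPS and 28 untreated, and NDI1 mouse 460 for 31 with both agents. The deviations of the members from their group means had a mean correlation of 0.41 between libraries of the same mouse, over 60 pairs that share the mouse.

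Some listed genes were called with piericidin A in WT, where 14.8% of all genes were called. Nfe2l2, a regulator of the oxidative stress response, rose by 0.82 ± 0.14 on the log2 scale (adjusted p = 0.00013, edgeR). Etfa, which carries electrons from fatty acid oxidation towards CoQ, rose by 0.40 ± 0.13. Tfb2m and Polrmt fell by 0.84 ± 0.21 and 0.56 ± 0.18. With LPS present, where 16.7% of all genes were called, piericidin A lowered Nfe2l2 by 0.41 ± 0.14 and Tfam by 0.52 ± 0.12. It raised Etfdh by 0.47 ± 0.14 and Aifm1 by 0.49 ± 0.13.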
